A study of Mus musculus with 36 samples.

Results

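The receptors for interleukin-12 (IL-12), interleukin-18 (IL-18), interleukin-33 (IL-33), interleukin-1 (IL-1) and interferon-γ were followed in mouse CD4 T cells by ATAC-seq, an assay in which a transposase cuts and tags open chromatin. The members were Il12rb1 and Il12rb2 (the IL-12 receptor chains), Il18r1 and Il18rap (the IL-18 receptor chains), Il1rl1 (ST2, the IL-33 receptor), Il1r1 (the IL-1 receptor) and Ifngr1 (the ligand-binding chain of the interferon-γ receptor). A peak was taken as a member where its middle lay nearest to a protein-coding transcript start of one of these genes in the mouse GENCODE annotation of GRCm39, or where it overlapped the body of one of them. This rule, which used no accessibility value, gave 96 peaks of the 71509 in the table. Of these, 3 lay at Il12rb1, 18 at Il12rb2, 7 at Il18r1, 10 at Il18rap, 22 at Il1rl1, 18 at Il1r1 and 21 at Ifngr1, and 3 peaks belonged to 2 members at once.

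The study compared wild-type (WT) and knock-out (KO) CD4 T cells of 2 mouse lines whose background mixes 129/Sv and C57BL/6, from sex-matched littermates 6 to 12 weeks old. The paper's reporting summary says that males were used for its sequencing. In the HP1α line (genotypes HP1a WT and HP1a KO), a floxed Hp1a allele had been excised with CMV-cre, so HP1α was lost from every cell, and the controls were Hp1a+/+ littermates. In the HP1γ line (HP1g WT and HP1g KO), Hp1g was deleted with Cd4-cre, so the loss was restricted to T cells, and the controls were Hp1g flox/flox littermates without Cre, which carry the floxed allele too. HP1α and HP1γ are heterochromatin proteins that bind methylated lysine 9 of histone H3. Each genotype was measured in 3 states with 3 replicates each, which gave 12 groups and 36 libraries. Naive cells were CD4+ CD62L+ CD44-/low T cells from spleen. Tconv were TCR Vβ6+ donor conventional T cells sorted from spleen 3 weeks after naive CD4 T cells had been given, with bone marrow of C57BL/6 J and of B6D2F1 mice mixed 1:1, to lethally irradiated hosts that were C57BL/6 J or CD45.1+ B6 mice. TconvTreg were the same cells from hosts that had also received ex vivo expanded WT regulatory T cells (Treg) carrying the Foxp3-Thy1.1 reporter, with Thy1.1+ cells removed in the sort. No source used here says whether replicates came from separate animals, so p-values measure the spread between these libraries only.

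IL-12 binds a receptor of IL-12Rβ1 and IL-12Rβ2 and signals through JAK2, TYK2 and STAT4. Of these chains, IL-12Rβ2 is the one restricted to activated and Th1-committed cells, and IL-12Rβ1 also serves the IL-23 receptor. The IL-1 family receptors share an intracellular TIR domain that recruits MYD88 and IRAK kinases. The IL-18 receptor marks Th1 cells and acts with IL-12 to raise interferon-γ, ST2 marks Th2 cells and a subset of Treg, and the IL-1 receptor is used by Th17 cells. The genes Il1r1, Il1rl1, Il18r1 and Il18rap lie in that order on the plus strand of mouse chromosome 1, with Il1rl2 between the first pair.

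Il1r1 was annotated at chr1:40264174-40356417, Il1rl1 at chr1:40468730-40504575, Il18r1 at chr1:40504712-40540014 and Il18rap at chr1:40554522-40590865, all on the plus strand of GRCm39. Il12rb2 lay at chr6:67268302-67353172 on the minus strand, Il12rb1 at chr8:71261093-71276183 on the plus strand and Ifngr1 at chr10:19467697-19485977 on the plus strand. Of the 96 peaks, 9 overlapped a transcript start, 32 lay in introns, 8 in coding exons, 3 in untranslated regions and 44 upstream. Peaks are named here by the distance from their middle to the nearest protein-coding start of the gene. The Il18r1 start peak also covers the 3′ end of Il1rl1 and is counted for both genes. The 4 Il12rb2 peaks from 39.5 to 55.7 kb upstream lie in the neighbouring gene Il23r, and 3 peaks at the 3′ end of Il12rb2 lie in Serbp1. The peak 20.6 kb upstream of Il18rap lies in Il18r1. Reads in such a peak cannot be given to one of the 2 genes.

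The start regions of Il1rl1, Il18r1, Il18rap and Il12rb2, which code for receptors of IL-33, IL-18 and IL-12, are shown from 250 bases before to 50 bases after the annotated start, read from GRCm39 on the gene's strand. They are in lower case, with matches to any of 5 short motifs in capitals on either strand. The letters TGANTCA were searched for AP-1, the letters TTCNNNGAA for STAT factors, the letters AGGTGTGA for T-box factors, the letters TGTGGTT for RUNX factors and the letters AGATAAG for GATA factors.
Il1rl1 start, chr1:40468480-40468779 (plus strand): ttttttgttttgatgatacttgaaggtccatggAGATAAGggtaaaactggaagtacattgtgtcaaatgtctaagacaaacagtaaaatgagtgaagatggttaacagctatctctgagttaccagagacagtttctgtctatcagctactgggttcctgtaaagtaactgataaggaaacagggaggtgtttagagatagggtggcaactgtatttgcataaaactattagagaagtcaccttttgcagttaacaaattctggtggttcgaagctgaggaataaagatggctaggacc
Il18r1 start, chr1:40504586-40504885 (plus strand): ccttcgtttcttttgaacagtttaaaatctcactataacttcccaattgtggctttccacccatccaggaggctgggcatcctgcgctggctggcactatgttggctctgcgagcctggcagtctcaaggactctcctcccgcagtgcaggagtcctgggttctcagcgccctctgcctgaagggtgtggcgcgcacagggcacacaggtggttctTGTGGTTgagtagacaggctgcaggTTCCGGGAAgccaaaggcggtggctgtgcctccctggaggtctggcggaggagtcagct
Il18rap start, chr1:40554272-40554571 (plus strand): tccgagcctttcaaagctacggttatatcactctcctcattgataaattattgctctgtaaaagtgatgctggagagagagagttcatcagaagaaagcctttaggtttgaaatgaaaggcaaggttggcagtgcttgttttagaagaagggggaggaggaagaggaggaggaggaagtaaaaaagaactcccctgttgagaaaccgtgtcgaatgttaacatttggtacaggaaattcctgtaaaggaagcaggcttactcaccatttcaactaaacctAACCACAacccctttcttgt
Il12rb2 outer start, chr6:67353123-67353422 (minus strand): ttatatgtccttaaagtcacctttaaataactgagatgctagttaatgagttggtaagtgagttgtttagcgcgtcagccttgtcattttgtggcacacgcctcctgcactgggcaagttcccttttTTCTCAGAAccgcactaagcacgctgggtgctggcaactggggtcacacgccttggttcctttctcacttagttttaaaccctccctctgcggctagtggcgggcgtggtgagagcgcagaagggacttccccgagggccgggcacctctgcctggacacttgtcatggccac
The capitals mark 1 GATA match in the Il1rl1 window, 1 STAT and 1 RUNX match in the window at the inner Il18r1 start, 1 RUNX match in the Il18rap window and 1 STAT match in the Il12rb2 window.

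The peaks on which the later comparisons turn are shown as the central 300 bases of each, on the plus strand and marked in the same way. They are the Il1rl1 peak with the smallest p-value between HP1γ KO and WT Tconv, the widest Il1rl1 peak, an Il18rap exonic peak and the one Il12rb2 peak that was higher in HP1γ KO cells.
Il1rl1 10.8 kb upstream, chr1:40457746-40458045: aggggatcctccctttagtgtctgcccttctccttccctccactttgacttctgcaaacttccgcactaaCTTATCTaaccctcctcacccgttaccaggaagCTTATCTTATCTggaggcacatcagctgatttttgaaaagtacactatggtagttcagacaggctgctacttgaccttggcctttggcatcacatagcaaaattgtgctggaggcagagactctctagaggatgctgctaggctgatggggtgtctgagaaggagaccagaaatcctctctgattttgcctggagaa
Il1rl1 36.8 kb upstream, chr1:40431781-40432080: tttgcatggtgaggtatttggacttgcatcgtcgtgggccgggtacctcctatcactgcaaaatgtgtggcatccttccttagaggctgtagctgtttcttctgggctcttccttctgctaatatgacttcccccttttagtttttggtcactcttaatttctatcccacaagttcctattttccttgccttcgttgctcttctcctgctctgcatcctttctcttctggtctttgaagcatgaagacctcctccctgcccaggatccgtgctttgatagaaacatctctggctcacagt
Il18rap 8.77 kb downstream in a coding exon, chr1:40563141-40563440: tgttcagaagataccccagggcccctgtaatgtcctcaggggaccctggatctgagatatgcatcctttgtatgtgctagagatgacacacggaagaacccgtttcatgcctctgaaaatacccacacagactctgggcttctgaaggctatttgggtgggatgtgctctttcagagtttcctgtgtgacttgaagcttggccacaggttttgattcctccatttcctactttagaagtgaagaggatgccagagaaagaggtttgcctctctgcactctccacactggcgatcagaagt
Il12rb2 19.6 kb upstream, chr6:67372646-67372945: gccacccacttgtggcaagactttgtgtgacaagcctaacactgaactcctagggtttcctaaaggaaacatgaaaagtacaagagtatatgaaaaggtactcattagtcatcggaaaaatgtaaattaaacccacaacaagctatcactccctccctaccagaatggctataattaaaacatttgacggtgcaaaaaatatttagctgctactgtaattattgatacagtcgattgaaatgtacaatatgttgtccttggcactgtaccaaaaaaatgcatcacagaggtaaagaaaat
The first of these windows holds 3 GATA matches and the other 3 hold none of the 5 motifs. Over the central 300 bases of all member peaks, GATA was found in 10.4% of 96 windows against 3.89% of the 71509 peaks. RUNX was found in 16.7% against 12.9%, AP-1 in 17.7% against 13.0%, STAT in 4.17% against 8.89% and T-box in 1.04% against 1.99%. In the 22 start windows of the members STAT was found in 27.3% against 7.96% of 67321 start windows, RUNX in 13.6% against 4.73%, GATA in 4.55% against 2.79%, and AP-1 and T-box in 0%, against 6.91% and 1.06%. In the first of the peak windows 2 of the GATA matches overlap by 2 bases, and no printed match to 1 motif overlapped a match to another motif. A match is a run of letters and not a site where a factor was measured.

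The libraries held 1.49 to 96.8 M reads (M, 1e6) in peaks, with a median of 54.8 M. Of the 36 libraries, 3 were left out of the fits, as the methods describe, for a low share of reads in peaks and weak signal at starts, namely HP1a WT TconvTreg replicate 3 and HP1a KO TconvTreg replicates 2 and 3. In the HP1α line the TconvTreg state therefore rests on 1 KO library (50.7 M reads) and 2 WT libraries (12.7 and 1.49 M), and any HP1α result in that state is weakly supported. The HP1γ libraries all held at least 19.4 M reads. Levels are in CPM, read counts divided by the library's reads in peaks in M after scaling with TMM factors, and levels of different peaks are compared only per kb of peak. All 96 peaks passed the filter on low counts, and 26 of 3456 pairs of peak and library had no read. A peak was called where edgeR's quasi-likelihood test gave an adjusted p under 0.05 over all peaks of the line, with a log2 fold change beyond 1 in either direction. The values ± after log2 fold changes are standard errors.

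Start peaks of the 6 CD4 T cell marker genes were all present, and no peak overlapped the starts of the mast cell and basophil markers Fcer1a, Mcpt8 and Cpa3, the B cell markers Cd79a and Cd79b, the NK cell markers Ncr1 and Klrb1c, the myeloid markers Csf1r and Lyz2, or of Cd8a. Start peaks were present at Cd8b1, a CD8 T cell gene, at 29.5 to 35.9 CPM in naive libraries and 2.66 to 10.5 CPM in the others. They were also present at the myeloid genes Cd14 and Itgam, at 6.54 to 14.8 and 0.902 to 7.17 CPM, and at the B cell gene Pax5. Of the NK cell and ILC list, Eomes and Klre1 had one, with group means of 17.0 to 50.6 and 0.211 to 1.70 CPM. The NK cell and ILC sums below are thus mostly Eomes, which is also on the later list of Th1 and Th2 regulators. In HP1γ KO cells the Cd4 start peak was at 511 to 730 CPM over all 9 libraries, against 80.3 to 119 CPM in WT, in a line whose Cre is driven by Cd4 sequence. The targeted genes keep their starts in this assay: the Cbx3 (HP1γ) start peak was at 176 to 194 CPM in KO and 158 to 197 CPM in WT libraries, and the main Cbx5 (HP1α) start peak at 64.8 to 201 and 80.3 to 260 CPM, so these peaks do not check the genotype labels. The sorted cells are a bulk sample, in which fewer cells with an open site and less opening per cell cannot be told apart.

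Per kb of peak, the Ifngr1 start peak was the most accessible of the members' start peaks in each of the 12 groups, at group means of 10.8 to 31.1 CPM per kb, and the Il1rl1 start peak was at 0.133 to 6.44 CPM per kb. The others were Il12rb1 at 3.39 to 9.21, Il18r1 at 6.23 to 14.6, Il18rap at 3.27 to 15.7, the outer and inner Il12rb2 starts at 4.41 to 19.8 and 4.12 to 14.0, and the inner and outer Il1r1 starts at 1.02 to 7.49 and 0.585 to 6.75 CPM per kb. HP1γ WT Tconv had the highest group mean of all 12 groups at the Il12rb2, Il18r1, Il18rap, Il1rl1 and Ifngr1 starts, and HP1α KO Tconv had it at Il12rb1 and Il1r1. In each case the range of the 3 libraries overlapped that of the next group. At the inner Il1r1 start every naive library lay below every library of the transferred groups. At Il1rl1 the 4 naive groups were lowest (0.153 ± 0.015 to 0.513 ± 0.29 CPM, SD, n = 3), then HP1γ KO TconvTreg (0.774 ± 0.14 CPM), whose libraries lay below all those of HP1γ KO Tconv (2.31 ± 0.71 CPM), the next group in the order. At Ifngr1 each of the 12 groups overlapped its neighbour in the order.

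**Figure D1:**
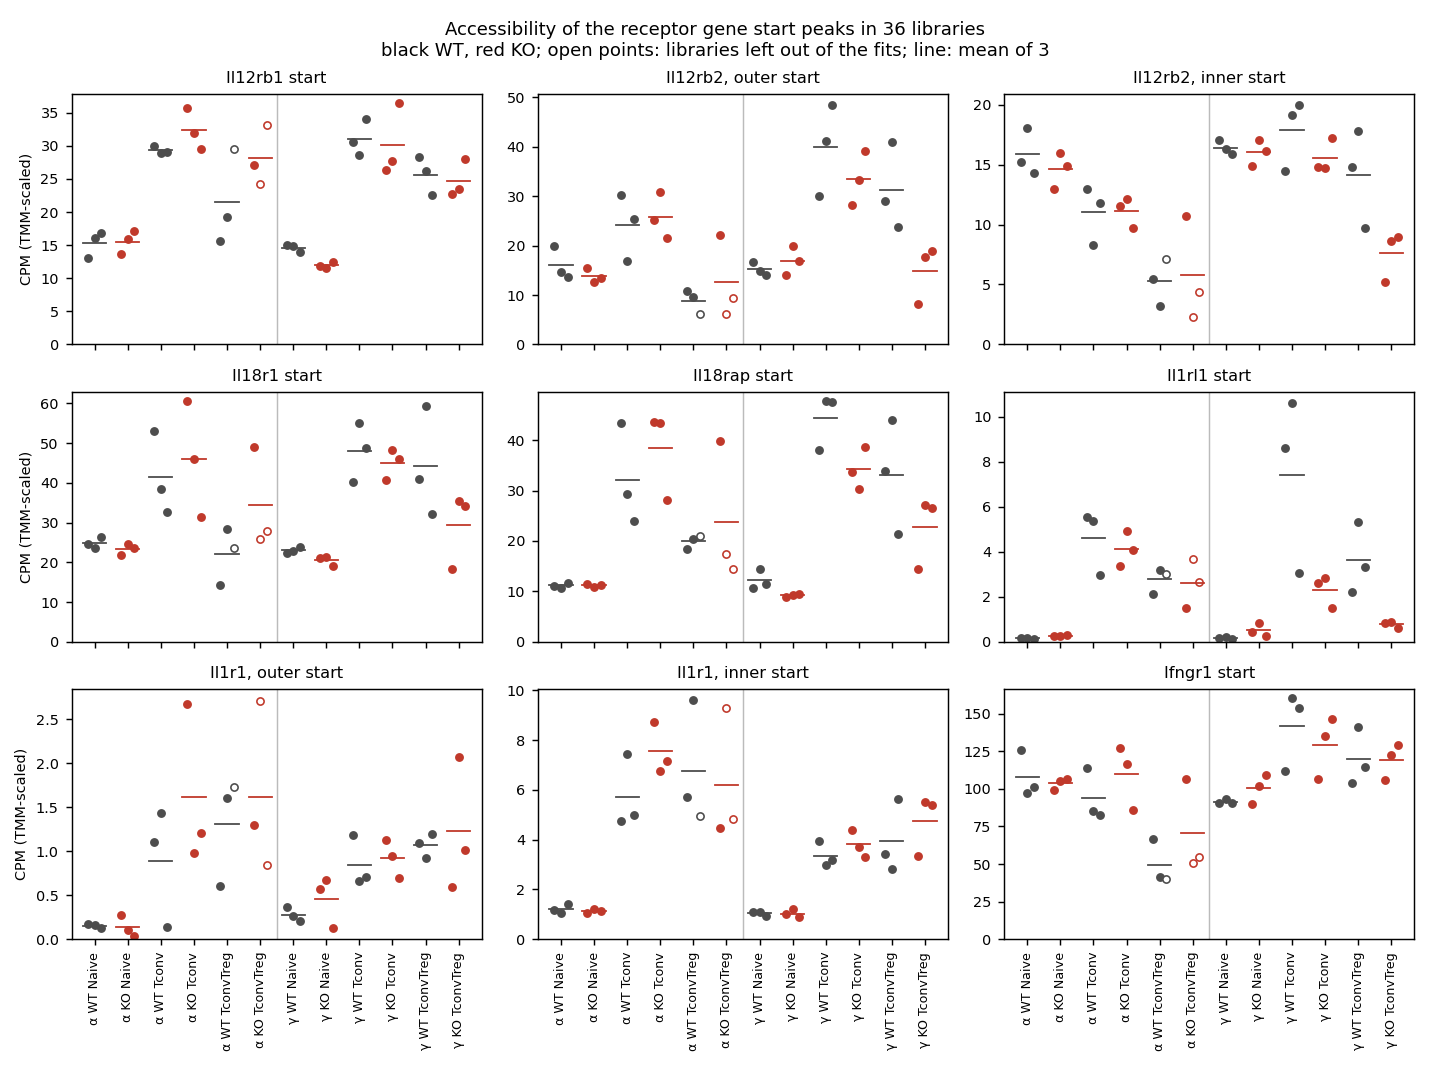
Accessibility of the start peaks of the 7 receptor genes in every library (TMM-scaled CPM on linear axes from 0), by group, in black for WT and red for KO, with open points for the 3 libraries left out of the fits and lines for the mean of 3. The Il1rl1 start lies between 0.134 and 0.836 CPM in all naive libraries and reaches 10.6 CPM in HP1γ WT Tconv, while Ifngr1 lies at 39.7 CPM or above in every library.

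The first question was how the receptor genes opened between naive cells and the Tconv of the graft model. At Il1rl1, Il1r1 and Il18rap most peaks were higher in Tconv, at Il12rb2 peaks moved in both directions, and the Il12rb1 and Il18r1 starts rose by smaller steps. In HP1γ WT cells 66 of the 96 peaks were higher and 5 lower in Tconv, with a median log2 fold change of 1.75 over the members and 0.08 over all peaks. Of all peaks tested in that comparison, 24.5% were called higher and 22% lower. In HP1γ KO cells 58 were higher and 5 lower (22.4% and 20.6% of all peaks). HP1α WT and KO cells each had 59 higher and 5 lower, where 24.9% and 17.5% of all peaks were called in WT and 23.5% and 19% in KO cells. Naive cells were taken straight from mice and Tconv from grafted hosts by their Vβ6 receptor, so the comparison holds transfer, stimulation and sort together. In HP1γ WT cells Cd8b1 was at 31.7 to 35.5 CPM in naive libraries and 2.66 to 4.34 CPM in Tconv, Pax5 at 2.69 to 3.42 and 4.53 to 6.09 CPM, the summed NK cell and ILC genes at 17.7 to 19.5 and 23.7 to 28.8 CPM and the CD4 T cell genes at 745 to 780 and 879 to 1064 CPM. Cd8b1 and Pax5 did not overlap between naive cells and Tconv in any of the 4 genotypes, and the NK cell and ILC sums overlapped in the other 3. The part of these markers in the result was not tested.

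Il1rl1, the IL-33 receptor gene, held the member peak with the largest rise in each of the 4 genotypes. At this peak 43.3 kb upstream the HP1γ WT naive libraries had 0.278, 0.0407 and 0.159 CPM and the Tconv libraries 27.9, 36.6 and 38.0 CPM. The groups were far apart, with a log2 fold change of 7.83 (227-fold higher). The same peak had log2 fold changes of 5.71 in HP1α WT, 5.89 in HP1α KO and 6.37 in HP1γ KO cells. The peak 36.8 kb upstream is the widest of the Il1rl1 peaks, and its log2 fold changes were 5.17, 5.03, 6.26 and 4.97 in HP1α WT, HP1α KO, HP1γ WT and HP1γ KO cells. The Il1rl1 start rose from 0.185, 0.217 and 0.134 CPM to 8.58, 10.6 and 3.06 CPM in HP1γ WT cells (log2 fold change 5.46, 43.9-fold). In HP1γ KO cells it rose from 0.443, 0.836 and 0.259 CPM to 2.59, 2.84 and 1.49 CPM, a smaller log2 fold change of 2.38 ± 0.71 (adjusted p = 0.00695, edgeR). In HP1α WT cells the start rose by 5.12 (34.8-fold) and in HP1α KO cells by 4.01. Of the 22 Il1rl1 peaks 20 were called higher in HP1γ WT, 16 in HP1γ KO, 18 in HP1α WT and 19 in HP1α KO cells.

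Its neighbours followed. Of the 18 Il1r1 peaks 15 were higher in HP1γ WT cells and 17 in each of the other 3 genotypes. Its inner start rose from 1.10, 1.07 and 0.928 CPM to 3.95, 2.97 and 3.16 CPM in HP1γ WT cells, a log2 fold change of 1.79. All 10 Il18rap peaks were higher in HP1γ WT and HP1α WT cells, 9 in HP1α KO and 7 in HP1γ KO cells. The Il18rap start rose by 1.92 in HP1γ WT cells, from 10.8, 14.5 and 11.5 CPM to 38.1, 47.7 and 47.5 CPM, with no overlap. Its coding-exon peak 8.77 kb downstream rose by 4.44 in HP1γ KO cells, and the one 27.6 kb downstream by 4.37 in HP1γ WT cells. At the Il18r1 start the log2 fold changes were 1.12 in HP1γ WT, 1.20 in HP1γ KO and 1.05 in HP1α KO cells, all called, and 0.88 in HP1α WT cells, which is under the fold limit.

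Il12rb2, the inducible chain of the IL-12 receptor, gained peaks and lost others. Its outer start rose by 1.46 on the log2 scale in HP1γ WT cells, from 16.7, 14.8 and 14.0 CPM to 30.0, 41.2 and 48.5 CPM, and by 1.05 in HP1γ KO cells. The fold changes in HP1α WT and KO cells were 0.71 and 0.97. Its intronic peak 37.1 kb downstream of the inner start fell from 10.3, 9.53 and 8.62 CPM to 1.27, 1.55 and 1.36 CPM in HP1γ WT cells. The log2 fold changes there were -2.70 in HP1γ WT, -2.56 in HP1γ KO, -2.54 in HP1α WT and -3.17 in HP1α KO cells. The peak 45.9 kb upstream, inside Il23r, fell as well, with -2.85, -2.34, -1.75 and -2.07 in the same order. At the Il12rb1 start the log2 fold change was 1.15 in HP1γ WT, 1.39 in HP1γ KO and 1.11 in HP1α KO cells, called in each, and 0.98 in HP1α WT cells. The Ifngr1 start was not called in any of the 4 genotypes (0.70 in HP1γ WT, 0.41 in HP1γ KO, -0.11 in HP1α WT and 0.13 in HP1α KO cells), while 9 other Ifngr1 peaks were higher in HP1γ WT cells and the one 4.51 kb upstream was lower (-1.01).

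HP1γ loss was then compared within each state. In naive cells 0 of the 96 peaks was called by edgeR, against 0.14% of all peaks, and DESeq2 called 8 (8.33%), against 3.27% of all peaks. The member with the smallest p was the Il12rb2 peak 19.6 kb upstream, at 0.76, 0.602 and 0.436 CPM in KO and 0.0618, 0.136 and 0.0977 CPM in WT cells. Every KO library was above every WT library there, and the log2 fold change was 2.46 ± 0.77 (adjusted p = 0.271, edgeR).

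In Tconv without Treg, 8 Il1rl1 peaks near a start were called less accessible in HP1γ KO than in WT cells. Other Il1rl1 peaks near a start, those farther upstream and most peaks of the other receptor genes were not called. Of the 96, 2 passed as higher in KO and 9 as lower (9.38%), where 1.69% of all peaks were called higher and 1.66% lower. The median log2 fold change was -0.13 over the members and 0.02 over all peaks. Of the 9 lower peaks 8 lay at Il1rl1 and 1 at Il18rap. Groups did not overlap at 25 of the 96 peaks (26.0%), against 18.8% of all peaks, and 9 of the 11 called peaks were among these.

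At the Il1rl1 peak 10.8 kb upstream, whose centre is printed above with its GATA matches, the WT Tconv libraries had 3.73, 4.03 and 1.56 CPM and the KO libraries 0.522, 0.885 and 0.318 CPM. All WT libraries lay above all KO libraries, 6.06-fold lower in KO (log2 fold change -2.60 ± 0.41, adjusted p = 0.00112, edgeR). At the start itself the KO libraries had 2.59, 2.84 and 1.49 CPM and the WT libraries 8.58, 10.6 and 3.06 CPM, again without overlap. The KO cells were 3.43-fold lower (log2 fold change -1.78 ± 0.35, adjusted p = 0.00663, edgeR). The intronic peak 7.87 kb downstream of an inner start had 1.0, 1.07 and 1.32 CPM in KO and 3.10, 4.03 and 1.90 CPM in WT cells (-1.38 ± 0.26, adjusted p = 0.00344). The other Il1rl1 peaks called lower lay 1.98, 4.05 and 8.27 kb upstream of the start and 0.822 and 1.29 kb from an inner start, with log2 fold changes of -1.44 to -2.54. Groups overlapped at those 8.27 kb upstream and 0.822 kb from an inner start.

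The far upstream Il1rl1 peaks gave other values. At the peak 36.8 kb upstream, also printed above, KO Tconv had 45.5, 63.3 and 56.1 CPM and WT Tconv 54.0, 85.5 and 73.3 CPM, overlapping groups (-0.36 ± 0.23, adjusted p = 0.415). At 43.3 kb upstream KO Tconv had 25.8, 25.4 and 34.0 CPM and WT Tconv 27.9, 36.6 and 38.0 CPM (-0.23, adjusted p = 0.523). Among the 11 Il1rl1 peaks within 15 kb of a start the median log2 fold change was -1.47, with 11 below 0 and 8 called lower. Among the 9 that lay over 15 kb upstream the median was -0.36 and 0 were called. This division was chosen after the values were seen and was not tested. WT replicate 3 was the lowest WT library at each near-start peak named here, yet the highest or the middle one at the far upstream pair.

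**Figure D2:**
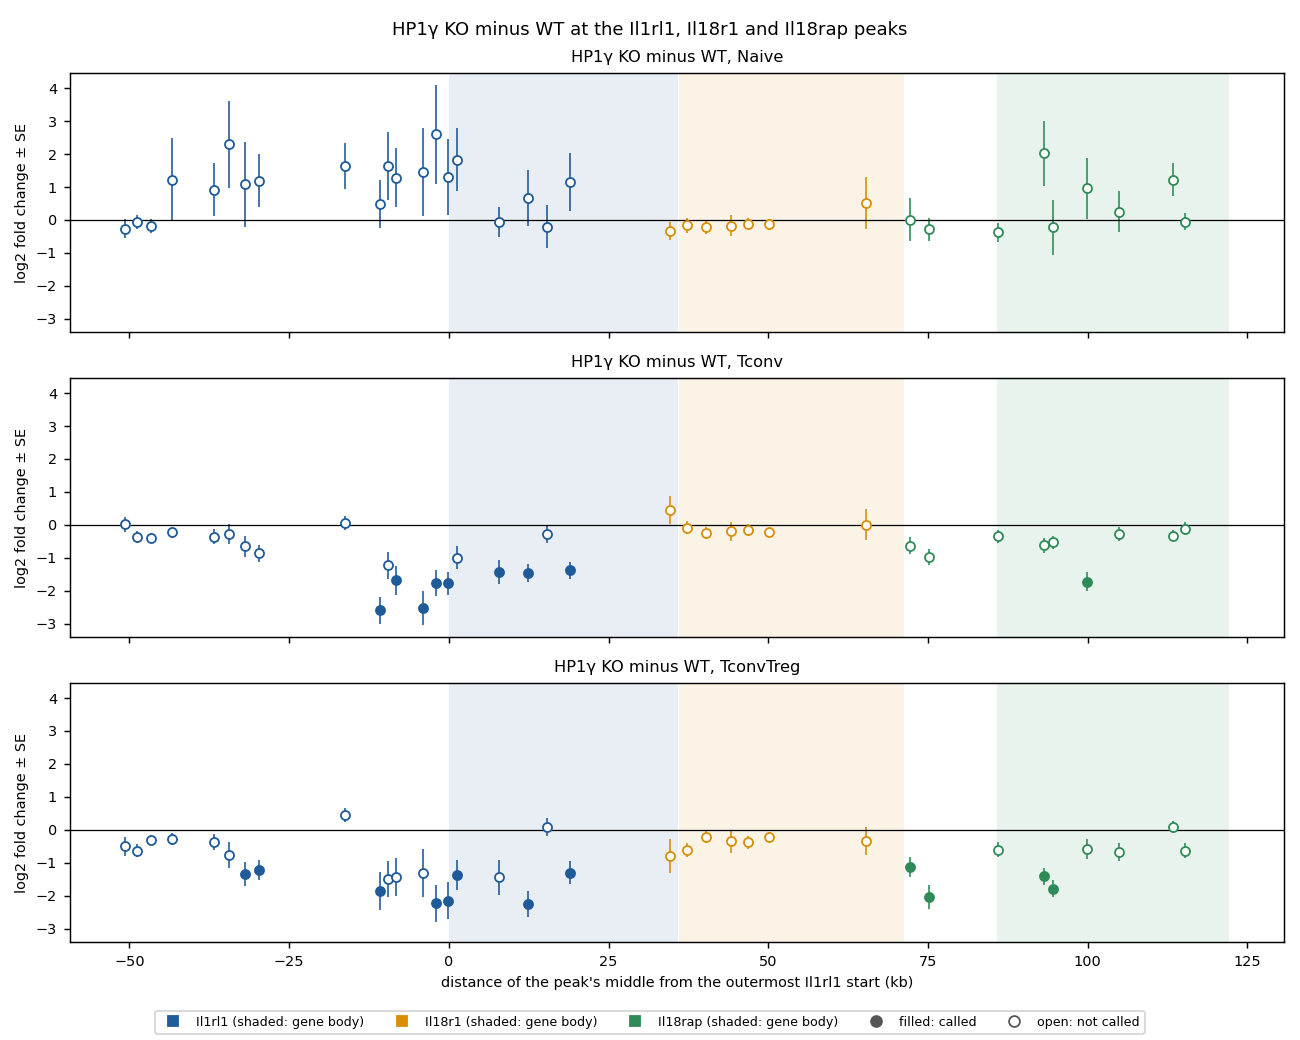
Log2 fold change between HP1γ KO and WT cells at the Il1rl1 (blue), Il18r1 (orange) and Il18rap (green) peaks in naive cells, Tconv and TconvTreg, against the distance of the peak middle from the outermost Il1rl1 start (kb). Bars are standard errors, filled points are called and shading marks the gene bodies. The called Il1rl1 peaks in Tconv lie near the start at -1.38 to -2.60, and the peaks 36.8 and 43.3 kb upstream lie at -0.36 and -0.23.

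For the IL-18 receptor, Il18rap peaks were below 0 in 10 of 10 cases in Tconv, with a median of -0.44, and 1 was called. This was the intronic peak 14.0 kb downstream, at 2.28, 2.84 and 1.86 CPM in KO and 7.53, 10.5 and 4.18 CPM in WT Tconv, without overlap (-1.73 ± 0.29, adjusted p = 0.00179). The Il18rap start was not called (-0.35, adjusted p = 0.368), nor were any of the 7 Il18r1 peaks. At the IL-12 receptor, the Il12rb2 peak 19.6 kb upstream was higher, at 1.80, 4.67 and 2.29 CPM in KO and 0.865, 1.46 and 1.68 CPM in WT Tconv (1.05 ± 0.30, adjusted p = 0.0469). The other 17 Il12rb2 peaks and the 3 Il12rb1 peaks were not called. At Il1r1 the peak 34.8 kb upstream was higher, at 10.1, 9.52 and 7.11 CPM in KO and 5.25, 2.90 and 3.52 CPM in WT Tconv (1.15 ± 0.30, adjusted p = 0.0307), and no Ifngr1 peak was called.

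The count of 11 depended on the fit, since with the libraries of these 2 groups alone 1 member peak was called, the Il1rl1 peak 10.8 kb upstream, and counts fell to 5 without WT replicate 2 and to 4 without KO replicate 3, which ended the call at the Il1rl1 start. The higher Il12rb2 peak lost its call without any 1 of WT replicates 1 and 2 and KO replicates 2 and 3, and the higher Il1r1 peak without any 1 library but WT replicate 1. With loess offsets 1 member was higher and 13 lower and all peaks divided into 918 higher and 1871 lower, where TMM gave 1207 and 1185 and DESeq2 1512 and 946. In the CD4 T cell list only Cd4 did not overlap, at 619 to 730 CPM in KO and 113 to 119 CPM in WT libraries of Tconv. Summed start peaks in these libraries did not overlap for that list (1372 to 1611 CPM in KO and 879 to 1064 CPM in WT), or for Cd8b1, the one CD8 T cell gene with a start peak (4.83 to 5.62 and 2.66 to 4.34 CPM). They overlapped for the Treg list, at 258 to 322 and 244 to 309 CPM, the 2 NK cell and ILC genes with a start peak, at 17.4 to 42.5 and 23.7 to 28.8 CPM, Pax5, and the 2 myeloid genes. Their part in these results was not tested.

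**Figure D3:**
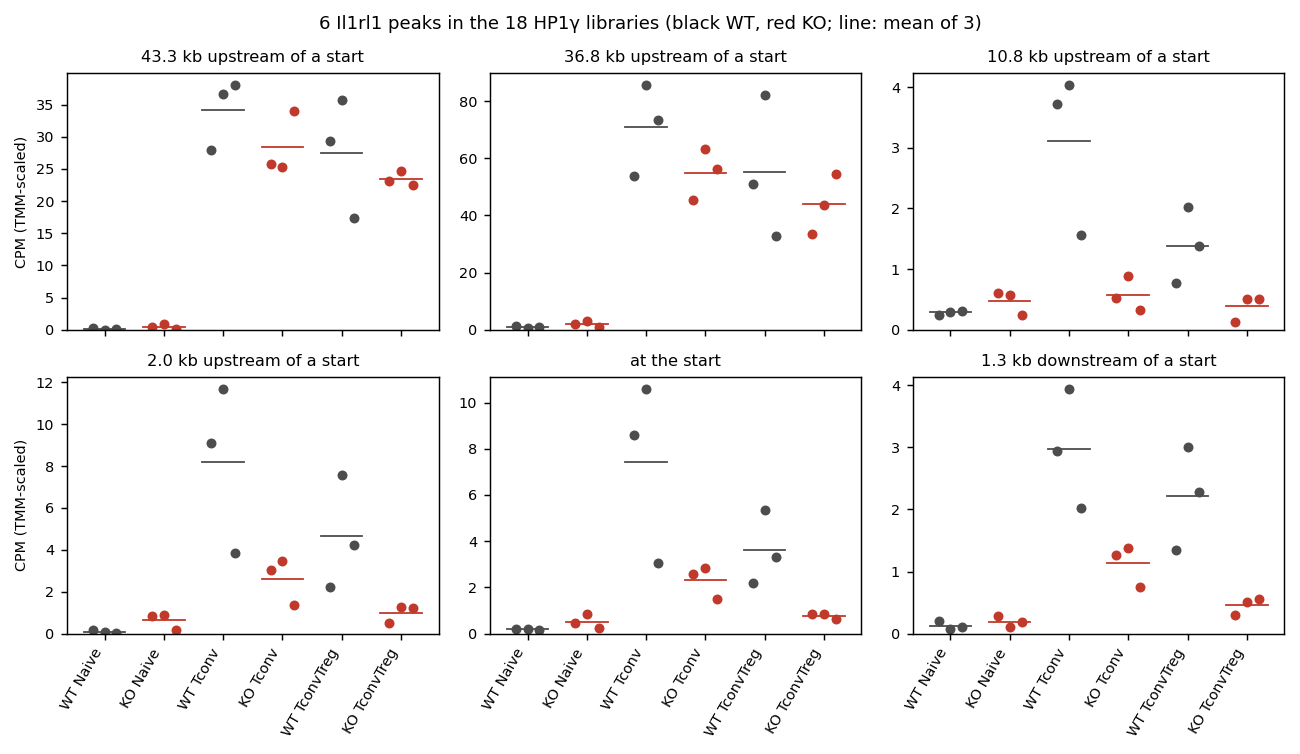
Accessibility (TMM-scaled CPM, linear axes from 0) of 6 Il1rl1 peaks in each of the 18 HP1γ libraries by genotype and state, with black points for WT, red for KO and lines for the mean of 3. At the 4 peaks from 10.8 kb upstream to 1.29 kb past an inner start the KO libraries of Tconv and TconvTreg lie below the WT libraries, and at the peak 36.8 kb upstream the groups overlap.

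With Treg present, HP1γ KO cells had lower peaks than WT cells mainly at Il12rb2, Il1rl1 and Il18rap. Of the 96 peaks 2 were higher and 22 lower (22.9%) in KO TconvTreg, where 6.48% of all peaks were higher and 5.38% lower. The median log2 fold change was -0.50 over the members and -0.02 over all peaks, and 70 members were below 0. The lower peaks were 8 at Il12rb2, 8 at Il1rl1, 4 at Il18rap and 2 of the 21 at Ifngr1. Groups did not overlap at 35 of the 96 peaks (36.5%), against 31.8% of all peaks, and these included 21 of the 24 called.

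The IL-12 receptor gene Il12rb2 had 8 of 18 peaks lower in this state. Its outer start had 8.25, 17.6 and 18.9 CPM in KO and 29.0, 41.1 and 23.8 CPM in WT cells. The highest KO library was below the lowest WT library (-1.12 ± 0.27, adjusted p = 0.00703, edgeR), and KO replicate 1 stood lowest. The inner start had 5.24, 8.64 and 8.94 CPM in KO and 14.8, 17.8 and 9.71 CPM in WT cells (-0.97 ± 0.22, adjusted p = 0.00528), just under the fold limit and so not called. The smallest p at Il12rb2 was at the peak 55.7 kb upstream, which lies in an intron of Il23r, at 0.34, 0.597 and 0.585 CPM in KO and 1.66, 2.94 and 2.38 CPM in WT cells (-2.17 ± 0.32, adjusted p = 0.000256). Against these, the peak 19.6 kb upstream was higher in KO cells, as in Tconv. It had 5.75, 4.76 and 7.08 CPM in KO and 2.55, 2.17 and 3.19 CPM in WT cells, without overlap (1.19 ± 0.25, adjusted p = 0.00275). At Il12rb1 no peak was called, and the coding-exon peak 2.47 kb downstream had the smallest p (-0.78, adjusted p = 0.0085).

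**Figure D4:**
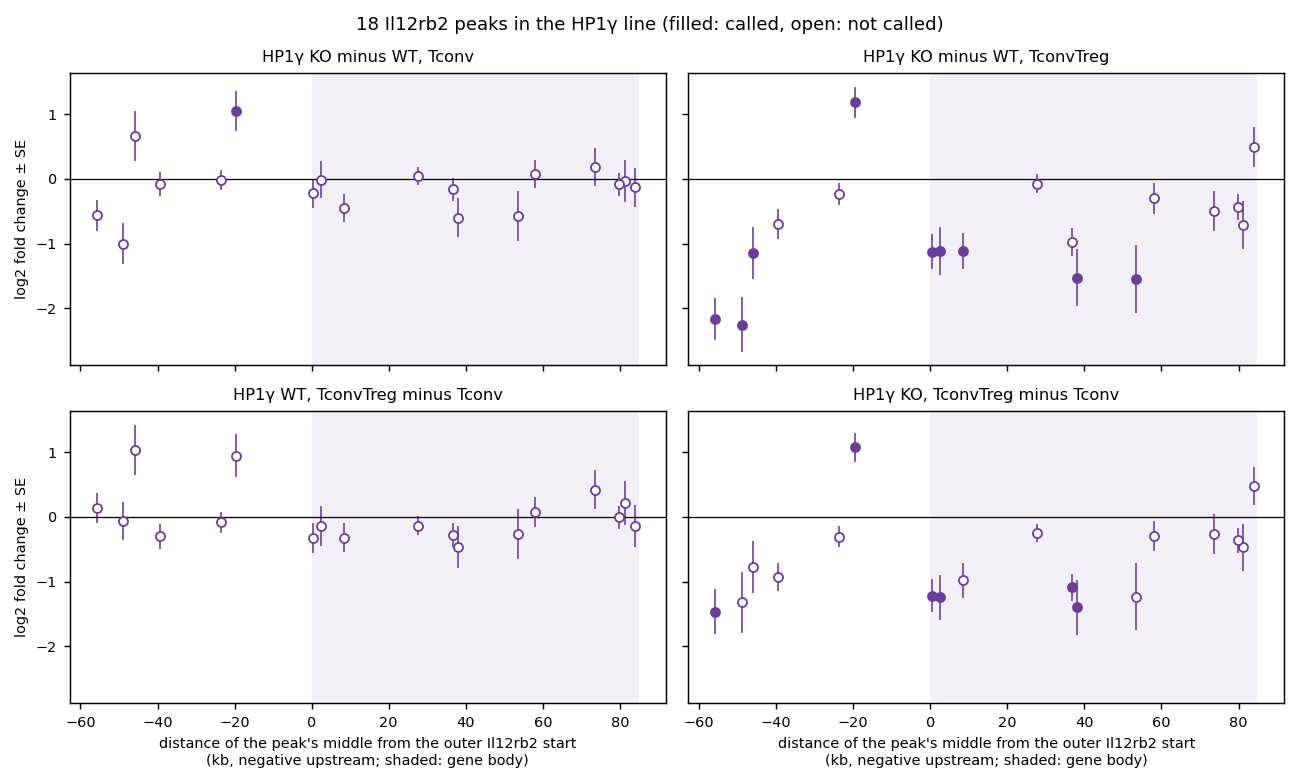
Log2 fold change with its standard error at the 18 Il12rb2 peaks against the distance from the outer start (kb), for HP1γ KO minus WT in Tconv and TconvTreg (upper panels) and for TconvTreg minus Tconv in HP1γ WT and KO cells (lower panels). Filled points are called. The peak 19.6 kb upstream lies above 0 between KO and WT in both states (1.05 and 1.19), and 8 other peaks are called lower in TconvTreg.

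The IL-18 and IL-33 receptor genes also had lower peaks in this state. The Il18rap coding-exon peak 8.77 kb downstream had 1.14, 2.23 and 2.13 CPM in KO and 6.21, 8.09 and 3.05 CPM in WT cells, without overlap (-1.79 ± 0.27, adjusted p = 0.000252). The Il18rap start had 14.4, 27.2 and 26.6 CPM in KO and 33.8, 44.1 and 21.5 CPM in WT cells, and was not called (-0.60, adjusted p = 0.0658). The Il18r1 start, at 18.2, 35.5 and 34.1 CPM in KO and 40.9, 59.4 and 32.2 CPM in WT cells, had a log2 fold change of -0.63 ± 0.21 (adjusted p = 0.0442), under the fold limit. At the Il1rl1 start KO cells had 0.851, 0.86 and 0.612 CPM and WT cells 2.20, 5.33 and 3.33 CPM, 4.44-fold lower and without overlap (-2.15 ± 0.55, adjusted p = 0.0111). Its intronic peak 1.29 kb from an inner start had 0.306, 0.509 and 0.559 CPM in KO and 1.35, 3.01 and 2.28 CPM in WT cells (-2.25 ± 0.39, adjusted p = 0.00071). In this state 2 far upstream Il1rl1 peaks, 29.7 and 31.8 kb from the start, were called lower too (-1.23 and -1.36), while those 36.8 and 43.3 kb upstream were not (-0.38 and -0.28).

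Il1r1 and the Ifngr1 start gave other values. Of the 18 Il1r1 peaks 16 had a log2 fold change above 0 and 1 was called, 11.5 kb upstream, at 1.43, 1.18 and 0.772 CPM in KO and 0.505, 0.373 and 0.904 CPM in WT cells. The 2 groups overlapped there (1.14 ± 0.32, adjusted p = 0.0172). The Ifngr1 start had 106, 123 and 129 CPM in KO and 104, 141 and 115 CPM in WT cells, a log2 fold change of 0.00 ± 0.14 (adjusted p = 0.995). Peaks 19.5 and 29.2 kb upstream of Ifngr1 were lower in KO cells (-1.82 and -1.63).

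This count also moved with the libraries used, to 11 with the libraries of these 2 groups alone, 13 when KO replicate 1 was left out and 9 when WT replicate 2 was, and to 26 with the replicate number as a block. The Il1rl1 start lost its call without WT replicate 2, the outer Il12rb2 start without either of these libraries, and the Il1r1 peak without either of them or WT replicate 1. With loess offsets 3 members were higher and 16 lower, and all peaks divided into 5540 higher and 2735 lower, where TMM gave 4635 and 3847 and DESeq2 4353 and 4463. The start peaks of the 4 Treg genes summed to 346 to 367 CPM in KO and 229 to 277 CPM in WT libraries of this state, without overlap. Of the 4, Ctla4 had 159 to 181 CPM in KO and 84.2 to 93.1 CPM in WT libraries and Ikzf2 70.7 to 79.9 and 31.3 to 55.6 CPM, while the defining gene Foxp3 had group means of 97.8 and 100.1 CPM and Il2ra of 17.3 and 26.5 CPM, each with overlapping libraries. The sums overlapped for the 2 NK cell and ILC genes, at 30.4 to 72.7 CPM in KO and 21.8 to 33.6 CPM in WT libraries, and for Pax5, the one B cell gene with a start peak, at 8.28 to 11 and 4.03 to 8.43 CPM, for Cd8b1 and for the myeloid genes. In the CD4 T cell list only Cd4 did not overlap, at 511 to 669 CPM in KO and 80.3 to 110 CPM in WT libraries. The sums of that list were 1268 to 1465 and 716 to 928 CPM, without overlap. Their part in these results was not tested.

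**Figure D5:**
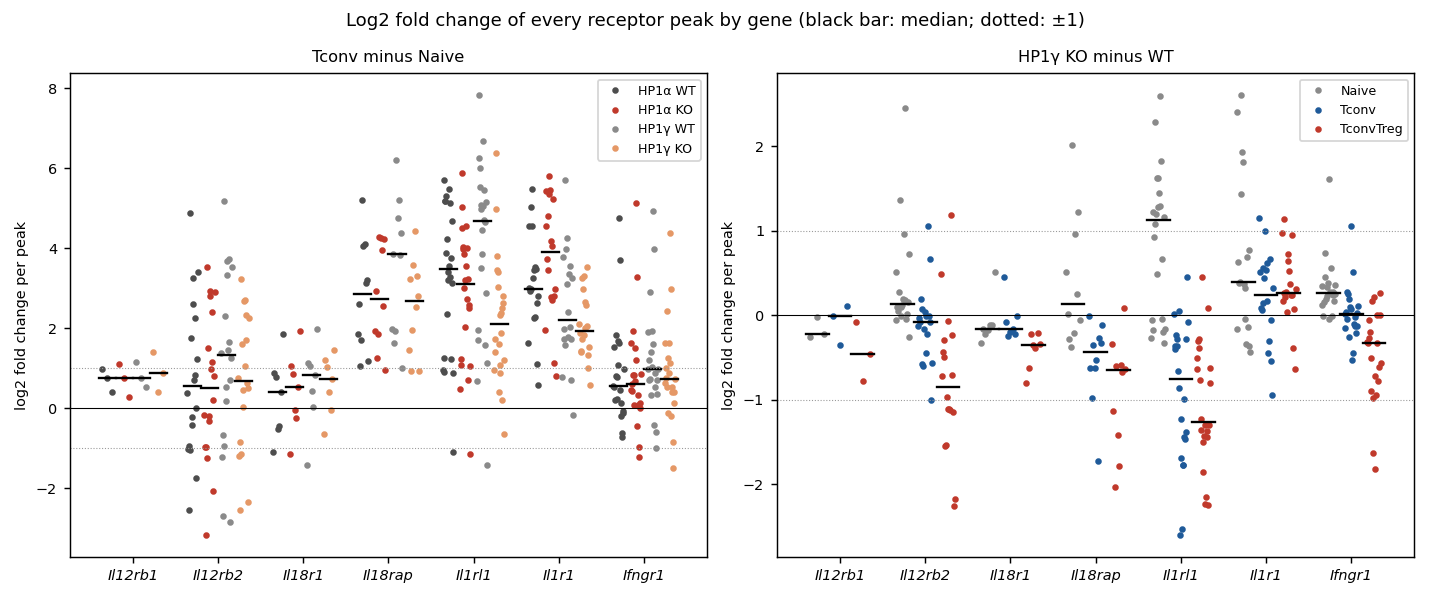
Log2 fold change of every member peak by gene, for Tconv minus Naive in the 4 genotypes (left) and HP1γ KO minus WT in the 3 states (right). Black bars are medians over the gene's peaks and dotted lines mark the fold limit. Between HP1γ KO and WT TconvTreg the medians are -1.26 at Il1rl1, -0.84 at Il12rb2 and -0.65 at Il18rap, against 0.27 at Il1r1.

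The effect of Treg was next compared within each HP1γ genotype. For its HP1γ expression data the paper states that the Treg ratio used left the WT response without effective repression. Whether the hosts of these ATAC-seq libraries had that ratio is not stated. In HP1γ WT cells 0 of the 96 peaks differed between TconvTreg and Tconv by edgeR, against 0.137% of all peaks. DESeq2 called 1, against 3.26% of all peaks, and the fit with the replicate number as a block called 4. The smallest p was at the Il1rl1 peak 10.8 kb upstream, at 0.768, 2.02 and 1.38 CPM with Treg and 3.73, 4.03 and 1.56 CPM without (-1.25 ± 0.35, adjusted p = 0.103), overlapping groups. In HP1γ KO cells 1 peak was higher and 10 lower with Treg, against 6.1% higher and 2.06% lower of all peaks. The lower peaks were 5 at Il12rb2, 3 at Ifngr1 and 2 at Il18rap. The Ifngr1 peak 29.2 kb upstream had 0.255, 0.966 and 0.532 CPM with Treg and 2.34, 1.62 and 2.27 CPM without (-1.87 ± 0.33, adjusted p = 0.00122). The Il18rap coding-exon peak 8.77 kb downstream had 1.14, 2.23 and 2.13 CPM with Treg and 5.30, 3.81 and 4.75 CPM without (-1.41 ± 0.27, adjusted p = 0.00206). Both Il12rb2 starts fell as well, the inner one from 14.8, 14.7 and 17.2 CPM to 5.24, 8.64 and 8.94 CPM (-1.09 ± 0.21, adjusted p = 0.00223) and the outer one by 1.22 (adjusted p = 0.0042). The one higher peak was the Il12rb2 peak 19.6 kb upstream (1.08 ± 0.23, adjusted p = 0.00352). The counts in KO cells moved to 4 without KO TconvTreg replicate 1, 18 without KO TconvTreg replicate 2, 6 without KO Tconv replicate 3 and 0 with these 2 groups alone. In the same KO libraries the Treg genes summed to 346 to 367 CPM with Treg and 258 to 322 CPM without. Of these genes Ctla4 (159 to 181 and 75.3 to 139 CPM) and Ikzf2 (70.7 to 79.9 and 48.3 to 56.4 CPM) were higher with Treg. Il2ra was lower, at 12.9 to 21.05 and 25.8 to 27.9 CPM, and Foxp3 overlapped. Pax5 was at 8.28 to 11 and 5.03 to 6.41 CPM and the 2 myeloid genes summed to 10.007 to 11.9 and 12.4 to 16.3 CPM. The Treg sum, Pax5 and the myeloid sum were each without overlap, while the CD4 T cell, Cd8b1 and NK cell and ILC values overlapped. Their part in the result was not tested.

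Whether the genotypes differed in these effects was tested with interaction terms. For the effect of Treg in the HP1γ line, 0 of the 96 peaks was called by edgeR, against 0.0014% of all peaks, and DESeq2 called 2, against 1.12% of all peaks. The smallest p was at the Ifngr1 peak 19.5 kb upstream (-2.34 ± 0.48, adjusted p = 0.229). For the change from naive cells to Tconv in the HP1γ line, 0 was called by edgeR, against 0.014% of all peaks, and DESeq2 called 11 (11.5%), against 1.93% of all peaks. The smallest p was at the Il1rl1 peak 10.8 kb upstream (-3.09 ± 0.90, adjusted p = 0.294). By edgeR the smaller opening of the Il1rl1 start in HP1γ KO than in WT cells was not called as a difference between genotypes (-3.08 ± 1.25, adjusted p = 0.453). Whether this start was among the DESeq2 calls is not given here. The comparisons within a line share libraries: KO and WT Tconv enter both the genotype and the Treg contrasts.

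In the HP1α line the receptor genes of naive and Tconv cells gave no call between KO and WT. In naive cells 0 of the 96 peaks was called by edgeR, against 0.00559% of all peaks, and the median was 0.01 over the members and 0.00 over all peaks. The smallest p was at the Il1r1 peak 11.5 kb upstream, at levels of 0.139 CPM or lower. In Tconv 0 was called by edgeR, against 0.021% of all peaks, and the medians were -0.01 and -0.03. The smallest p was at the Il12rb2 intronic peak 17.0 kb downstream of an inner start, at 1.91, 1.45 and 1.5 CPM in KO and 3.80, 3.04 and 2.56 CPM in WT Tconv. All KO libraries were lower there, but the change did not pass the adjusted test (-1.09 ± 0.22, adjusted p = 0.118), and it did without KO replicate 1, when 1 member peak was called.

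At the Il1rl1 start of the HP1α line, KO Tconv had 3.39, 4.94 and 4.07 CPM and WT Tconv 5.52, 5.38 and 2.99 CPM. At the peak 10.8 kb upstream KO Tconv had 2.11, 2.79 and 1.54 CPM and WT Tconv 1.90, 2.30 and 1.56 CPM. Both pairs of groups overlapped, where the HP1γ pairs did not. The 2 lines were fitted apart, and the difference between their effects was not tested.

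In HP1α TconvTreg, KO cells had 2 of the 96 peaks higher and 0 lower, against 0.218% higher and 1.41% lower of all peaks. The Ifngr1 peak 96.5 kb upstream had 35.9 CPM in the KO library and 11.3 and 12.8 CPM in the WT libraries (1.63 ± 0.37, adjusted p = 0.0317). The Il18r1 start had 49.1 CPM in KO and 14.2 and 28.3 CPM in WT (1.58 ± 0.39, adjusted p = 0.0491). In the libraries left out of the fits the KO values were 14.8 and 17.0 CPM at the Ifngr1 peak and 25.9 and 28.0 CPM at the Il18r1 start, beside 15.5 and 23.5 CPM in the WT library. DESeq2 called 11 members higher and 0 lower (11.5%), against 3.57% of all peaks. With all 18 HP1α libraries in the fit 0 members were called, as with these 2 groups alone, with the depth covariate and without either WT library, and the trended-dispersion fit called 1. Over all 3 libraries of each group, the NK cell and ILC genes summed to 34.1 to 39.1 CPM in KO and 40.6 to 63.2 CPM in WT TconvTreg. Most of this sum was Eomes, at 32.7 to 37.3 and 38.5 to 62.05 CPM, while Klre1 overlapped. Pax5 was at 5.21 to 12.9 and 13.3 to 17.1 CPM. Neither the NK cell and ILC sum nor Pax5 overlapped between KO and WT, and the other marker sums did. Their part in the result was not tested.

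Against Tconv, HP1α WT TconvTreg had 1 member peak higher and 9 lower, where 4.92% of all peaks were higher and 1.84% lower. The lower peaks were 4 at Ifngr1, 4 at Il1rl1, 1 at Il12rb1 and 1 at Il18r1, with the Il18r1 start counted for both Il1rl1 and Il18r1. The Ifngr1 peak 96.5 kb upstream had 11.3 and 12.8 CPM with Treg and 44.1, 31.4 and 32.0 CPM without (-1.69, adjusted p = 0.0054). The Il12rb1 coding-exon peak 2.47 kb downstream had 6.39 and 2.14 CPM with Treg and 15.6, 16.2 and 10.1 CPM without (-1.36, adjusted p = 0.0133). The Il12rb2 peak 19.6 kb upstream was the higher one, at 5.11 and 6.42 CPM with Treg and 0.875, 1.35 and 1.85 CPM without (2.33 ± 0.51, adjusted p = 0.00875). In the same comparison the summed start peaks of the 6 CD4 T cell genes were 403 to 638 CPM with Treg and 615 to 856 CPM without, Pax5 13.3 to 17.1 and 4.55 to 6.29 CPM, and the NK cell and ILC genes 40.6 to 63.2 and 19.8 to 39.5 CPM, over all 3 libraries of each group. Their part in the result was not tested. Without TconvTreg replicate 1, which leaves the library of 1.49 M reads, 0 members were called, and without Tconv replicate 1 there were 2, as with the depth covariate. With these 2 groups alone there were 4. The trended-dispersion fit called 19, the fit with the replicate number as a block 18, and DESeq2 1 higher and 20 lower (21.9%), against 9.51% of all peaks.

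In HP1α KO cells, with 1 TconvTreg library, 0 peaks were higher and 3 lower against Tconv, where 0.266% and 0.284% of all peaks were called. All 3 lay at Il1rl1. The peak 1.98 kb upstream had 1.33 CPM with Treg and 4.51, 6.01 and 5.61 CPM without (-1.97 ± 0.36, adjusted p = 0.0152). The start had 1.49 CPM and 3.39, 4.94 and 4.07 CPM (-1.45 ± 0.30, adjusted p = 0.0317), and the peak 10.8 kb upstream 0.526 CPM and 2.11, 2.79 and 1.54 CPM (-2.09 ± 0.46, adjusted p = 0.0456). Over all 3 libraries of each group the KO marker sums overlapped between TconvTreg and Tconv for every list with a start peak. In the 2 KO TconvTreg libraries left out these peaks had 6.39 and 2.29, 3.68 and 2.65, and 2.32 and 0.482 CPM, so the 3 KO TconvTreg libraries together overlapped the Tconv libraries at each of the 3 peaks. Without KO Tconv replicate 2 the count was 1, as with library size alone and with loess offsets. DESeq2 called 0 members, against 0.145% of all peaks, and the trended-dispersion fit and the fit of these 2 groups alone also called 0. The interaction of HP1α genotype and Treg gave 0 calls among the members by edgeR, against 0.0461% of all peaks, with 20 at an unadjusted p under 0.05, 2 by DESeq2, against 0.295% of all peaks, and the smallest p at the Ifngr1 peak 96.5 kb upstream (1.61 ± 0.41, adjusted p = 0.179). The share of all peaks at an unadjusted p under 0.05 is not given, so the member count at that level cannot be set against all peaks. The interaction of HP1α genotype and the change from naive cells to Tconv gave 0, against 0% of all peaks.

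Other genes of the same pathways were read from 4 lists. They were 9 genes of the IL-12 and IL-23 pathway (100 peaks), 16 of the IL-1, IL-18 and IL-33 pathway (75 peaks), 8 of the interferon-γ pathway (159 peaks) and 6 Th1 and Th2 regulators (202 peaks). Through Il23r 4 peaks of the first list, and through Il1rl2 2 peaks of the second, are also among the 96 and are counted in both. In HP1γ Tconv the lists had 0 higher and 3 lower, 0 and 1, 0 and 3, and 2 and 13 peaks called in KO against WT. The shares of each list were 0% higher and 3% lower, 0% and 1.33%, 0% and 1.89%, and 0.990% and 6.44%, beside 1.69% and 1.66% of all peaks. Named by the smallest p, an intronic peak of Ifngr2, the second chain of the interferon-γ receptor, had 4.23 ± 0.38 CPM in KO and 8.89 ± 1.7 CPM in WT Tconv (SD, n = 3), a log2 fold change of -1.07 ± 0.19. An intronic peak of Irak4, a kinase of the IL-1 and IL-18 receptors, fell by 2.28. A peak 197 kb downstream of Hlx, a Th1 transcription factor gene, rose by 1.24.

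In HP1γ TconvTreg the 4 lists had 9 higher and 10 lower, 7 and 4, 5 and 11, and 14 and 19 peaks. The shares of each list were 9% higher and 10% lower, 9.33% and 5.33%, 3.14% and 6.92%, and 6.93% and 9.41%, beside 6.48% and 5.38% of all peaks. The Ifngr2 peak was lower again, at 2.67 ± 0.41 CPM in KO and 8.45 ± 2.4 CPM in WT cells (-1.67 ± 0.22, adjusted p = 0.000128). A peak 14.7 kb upstream of Il1r2, the decoy IL-1 receptor next to Il1r1, was higher, at 14.8 ± 2.2 CPM in KO and 5.51 ± 0.55 CPM in WT cells (1.45 ± 0.22, adjusted p = 0.000354). In HP1γ naive cells, and in HP1α naive cells and Tconv, 0 peaks of these lists were called between KO and WT by edgeR. In HP1α TconvTreg the counts were 1 higher and 1 lower, 0 and 2, 0 and 2, and 1 and 4. The shares were 1% higher and 1% lower, 0% and 2.67%, 0% and 1.26%, and 0.495% and 1.98%, beside 0.218% and 1.41% of all peaks, and the Il1r2 peak was lower there (-2.0 ± 0.39, adjusted p = 0.0143).

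Between naive cells and Tconv of HP1γ WT cells 50, 30, 54 and 116 peaks of the lists were higher and 22, 6, 22 and 23 lower. These were 50%, 40%, 34.0% and 57.4% higher and 22%, 8%, 13.8% and 11.4% lower, beside 24.5% and 22% of all peaks. The Ifng start rose from 2.11 ± 0.38 to 64.0 ± 12 CPM (SD, n = 3) in HP1γ WT cells, and an intronic peak of Tbx21, the gene of the Th1 regulator T-bet, rose by 6.30 on the log2 scale in HP1α WT cells. A peak 12.8 kb upstream of Stat3 fell by 3.90 in HP1γ WT cells. With Treg, the HP1γ KO lists had 7 higher and 1 lower, 6 and 2, 4 and 7, and 11 and 6 peaks against Tconv, where 6.1% of all peaks were higher and 2.06% lower, including an intronic peak of Irak3, an inhibitor of IL-1 receptor signalling (1.70). HP1γ WT cells had 0 by edgeR.

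The start peaks of other protein-coding genes whose log2 CPM ran most like those of the members were found over the 33 libraries of the fits. These are correlations over libraries that share line, state and depth, given with no test. For Il1rl1 they were Hrh4 (Pearson r = 0.96) and Il13, a Th2 cytokine gene (0.95). For Il18rap they were Slc15a3 (0.96) and Gna15 (0.95), for Il18r1 Ms4a4b (0.90) and Furin (0.90), and for Il1r1 Caly (0.94) and Rimklb (0.93). For Il12rb1 they were Lif (0.96) and Prss30 (0.96), for Il12rb2 Synj2 (0.88) and Kcnj8 (0.84), and for Ifngr1 the shared start of Gnl1 and Prr3 (0.93) and Ier2 (0.93).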

How the data were processed

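ATAC-seq was done on sorted cells. The authors trimmed reads with Trim Galore 0.6.7, aligned them with BWA-MEM 2 to GRCm39, removed blacklisted, low-quality and duplicate reads, called peaks per sample with HMMRATAC, merged them with bedtools and counted reads with featureCounts 2.0.3. The deposited table holds raw read counts per merged peak for 36 libraries. Of its 71512 rows, 3 had no width and 71509 were used. A read that overlaps neighbouring peaks is counted in each.

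From these counts, peaks were assigned to GENCODE protein-coding starts (GRCm39), filtered with filterByExpr, scaled by TMM and tested for each line with edgeR 4.0.16 in R 4.3.3 (glmQLFit with legacy=FALSE, glmQLFTest, 1 mean per group), with Benjamini-Hochberg adjustment over all peaks of the line. The HP1α fit used 15 libraries and the HP1γ fit 18. The code was also run on simulated counts, and the outcome is not given here. Standard errors are the log2 fold change divided by the root of F. Log2 CPM used a prior count of 2. No 2 libraries of a group were identical.

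Named peaks were the start peaks of each member and, per comparison, every called member peak where there were 5 or fewer, otherwise the 3 with the smallest p in each direction, or the smallest p where none was called. Other peaks with values were chosen after their values were seen, to fill in a locus. Pathway peaks were the called ones with the smallest p per list. The members and lists were chosen with earlier results of these data known.

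Replicate numbers were checked for pairing by correlating deviations of same-numbered libraries from their group means. Every pair was above 0.1 for HP1α KO and WT Naive (0.50, 0.25, 0.27), HP1γ KO and WT TconvTreg (0.28, 0.15, 0.32) and HP1γ WT TconvTreg and Tconv (0.29, 0.20, 0.23), so the replicate block is given beside those results where it changes a count. Alternatives were DESeq2 1.42.0, library size alone, no filter, a depth covariate, only the groups compared, peaks within 10 kb, all HP1α libraries, each replicate left out, the replicate block and, added after the data were seen, loess offsets (limma 3.58.1) and the trended-dispersion quasi-likelihood fit. One marker gene is not reported here. Figures were drawn with matplotlib 3.10.9. Totals of reads in peaks limit precision.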

Additional observations from a re-analysis of the deposited data

How the results depend on the processing

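Counts below are of member peaks called, out of 96 unless a smaller set is named, with the count as reported in brackets, and the cause of each change was not tested unless fewer peaks or libraries enter by construction. Shares of all peaks under an alternative are given only where stated above, and a count without one cannot be set against all peaks. With DESeq2 in place of edgeR the counts were 11 for HP1α KO against WT TconvTreg (2), 8 for HP1γ KO against WT Naive (0), 21 for HP1α WT TconvTreg against Tconv (10), 0 for HP1α KO TconvTreg against Tconv (3), 1 for HP1γ WT TconvTreg against Tconv (0), 2 for the interaction of genotype and Treg in each line (0) and 11 for that of HP1γ genotype and activation, the change from naive cells to Tconv (0). The trended-dispersion fit gave 1, 2, 5, 19 and 0 for HP1α KO against WT TconvTreg, HP1γ KO against WT Naive, HP1γ KO against WT Tconv (11), HP1α WT TconvTreg against Tconv and HP1α KO TconvTreg against Tconv. With only the groups compared, which leaves fewer libraries to estimate the spread, these 5 comparisons gave 0, 4, 1, 4 and 0, and HP1γ KO against WT TconvTreg (24) gave 11 and HP1γ KO TconvTreg against Tconv (11) gave 0. All 18 HP1α libraries gave 0 for HP1α KO against WT TconvTreg and 1 in Tconv (0), and the depth covariate gave 0 in the first and 2 for HP1α WT TconvTreg against Tconv. Library size alone and loess offsets each gave 1 for HP1α KO TconvTreg against Tconv, and loess offsets gave 5 for HP1γ WT TconvTreg against Tconv.

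Among the 38 peaks within 10 kb of a start, where fewer peaks can be called, the counts for Tconv against Naive were 24 in HP1α WT (64), 26 in HP1α KO (64), 29 in HP1γ WT (71) and 25 in HP1γ KO (63). They were 1 for HP1α KO against WT TconvTreg, 7 and 11 for HP1γ KO against WT in Tconv and TconvTreg, 3 for HP1α WT and 5 for HP1γ KO TconvTreg against Tconv.

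With the replicate number as a block, HP1γ WT TconvTreg against Tconv gave 4 (0), HP1γ KO against WT TconvTreg 26 (24) and HP1α WT TconvTreg against Tconv 18 (10), where the numbers do not pair the samples in the last. The block moved no other count by over 1.5 times.

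Leaving out 1 replicate at a time gave 0 to 1 for HP1α KO against WT Tconv, 0 for TconvTreg, 4 to 16 for HP1γ KO against WT Tconv and 9 to 26 for TconvTreg. It gave 0 to 13 for TconvTreg against Tconv in HP1α WT, 1 to 3 in HP1α KO, 0 to 3 in HP1γ WT and 4 to 18 in HP1γ KO, and 0 to 1 for the interaction of HP1γ genotype and Treg. A lone TconvTreg library in the HP1α line is assumed to vary like the other groups.

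Over all alternatives, 235 of the counts for a comparison stayed within 1.5 times the reported count and 53 moved. Of the single-peak values 2908 kept their direction and their side of the limit, 105 lost the call, 54 gained it, 100 without a call moved by more than the spread and 0 reversed. Library size alone shifted the median of all peaks from -0.03 to 0.17 in HP1α WT Tconv against Naive and from 0.03 to 0.16 in HP1γ WT TconvTreg against Tconv. In HP1α TconvTreg the KO arm is 1 library, and 1 of the 2 WT libraries holds 1.49 M reads.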
